A study of Mus musculus with 15 samples.

Results

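The 37 genes described here encode hydrolases, membrane proteins and helpers of the lysosome, other than the cathepsins and the proton pump, and were followed in sorted mouse retinal microglia. They were taken by symbol from a list and are 37 of the 35519 genes in the transcript tables; 34 of them were among the 6521 genes with enough reads to be tested. RNA was sequenced from Fcrls+ microglia of 15 retinas, from C57BL/6 mice 12 weeks old that were either wild type or Apoe-/- (without the lipid carrier apolipoprotein E). The labels limit the deletion to no cell type, so it is not described as one of microglia alone. Retinas had been given a sham injection (4 wild type, 4 Apoe-/-) or a microbead injection (3 wild type, 4 Apoe-/-), which raises the pressure in the eye as a model of glaucoma. The design asks whether microglia without Apoe change their state under raised pressure as wild-type microglia do. Cells were sorted as CD11b+, Ly6c- and Fcrls+, and 100 to 600 were collected per retina. Nothing in the labels says that the numbered retinas of a group came from separate mice, so the p-values reflect only how far these samples differ among themselves, which may in part be technical.

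The lysosome is the acid compartment in which microglia take apart what they engulf. Its limiting membrane is lined by heavily glycosylated proteins such as LAMP1 and LAMP2, and inside it soluble hydrolases remove sugars, sulfates, fatty acids and amino acids one step at a time. Loss of a single hydrolase or cofactor causes a storage disease, and many of these affect retina and brain. The transcription factor TFEB and its relatives TFE3 and MITF bind short E-box-like sites near the start of many lysosomal genes.

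Libraries held 458307 to 714843 reads assigned to genes, and many of these fell in 12 major satellite gene models (a DNA repeat). The satellite share was 55.9 to 66.6% in wild-type sham, 40.8 to 53.5% in wild-type microbead, 64.7 to 74.4% in Apoe-/- sham and 55.4 to 70.7% in Apoe-/- microbead libraries. It was 16.1 percentage points lower in wild-type microbead than in wild-type sham libraries (exact two-sided permutation p = 0.0286, adjusted p = 0.392 over 16 tests of library values). The 2 groups did not overlap, and this p is the smallest that the test can give with 3 and 4 libraries. The adjusted p thus says little about the size of the shift. Levels are therefore compared between libraries in CPM units, with library sizes set by TMM normalisation, which assumes that most genes do not change. Apoe, the targeted gene, had 667 to 15125 reads in the wild-type libraries and 0 to 6 in the Apoe-/- libraries. All 12 microglial markers were detected in each group, and their summed level ran from 4716 CPM in an Apoe-/- sham library to 9981 CPM. Summed rod photoreceptor markers ran from 751 to 3065 CPM in wild-type sham, 195 to 794 CPM in wild-type microbead, 251 to 1881 CPM in Apoe-/- sham and 268 to 2935 CPM in Apoe-/- microbead libraries. Markers of monocytes and neutrophils summed to 5.02 to 76.3 CPM, and S100a9 was at 0 in all 15 libraries. Markers of border macrophages summed to 136 to 321 CPM and those of Mueller glia and astrocytes to 70.3 to 161 CPM. Vascular and pericyte markers summed to 7.65 to 72.0 CPM. The part of such cells in the lysosomal values was not tested. In bulk samples, fewer cells of a type and less RNA per cell cannot be told apart. The genotypes were also placed on separate plates, by the plate letter in the names of the deposited tables, so genotype and plate cannot be told apart.

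At this depth 9 of the 37 genes averaged 100 reads or more per library, 22 averaged 10 to 100 and 6 fewer than 10. By a stricter measure, a mean of at least 10 reads and at least 3 times the reads that silent sensory receptor genes collect over the same length, 26 genes were measured well. Gla, Galns and Tfeb were not tested, because too few libraries passed the filter on low counts. Gla (alpha-galactosidase A), Sgsh (N-sulfoglucosamine sulfohydrolase), Ids (iduronate 2-sulfatase) and Galns (galactosamine-6-sulfatase) lay at 0.749, 0.775, 0.816 and 0.928 times that background over all libraries together. Their summed reads thus cannot be told from stray reads, and the ratio was not taken library by library. Among the 26, the coefficient of variation between wild-type sham libraries had a median of 19.8%, beside 11.3% from counting alone. The annotation gives 10 of the 37 genes some exon bases shared with a neighbouring gene, and in 4 of them (Npc1, Glb1, Idua and Ppt1) that neighbour held at least 0.1 times as many reads. Reads in the shared stretches of these 4 could belong to either gene, and whether counting used strand is not given in the sources used here.

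The levels of the genes spanned a wide range. On the TPM scale, which corrects for transcript length and so allows genes to be compared, Laptm5 was highest with a mean of 235 TPM over the 15 libraries, and was the highest of the 37 in 15 of 15 libraries. It encodes a lysosomal membrane protein of hematopoietic cells that directs receptors to degradation, and ranked 45 of the 6521 tested genes. Next came Lgmn at 167 TPM (legumain, an asparaginyl endopeptidase), Grn at 105 TPM (progranulin) and Psap at 100.2 TPM (prosaposin, the precursor of the saposins that present sphingolipids to hydrolases). Those 4 genes took 52.7 to 58.2% of all reads of the 37 genes in a library. Cd68 (a mucin-like macrophage membrane protein) had a mean of 66.1 TPM, Asah1 (acid ceramidase) 48.3 TPM, Hexa (the alpha subunit of beta-hexosaminidase) 46.0 TPM and Lamp2 44.0 TPM. Gla was lowest at 1.19 TPM. The plot of levels shows the whole range.

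**Figure D1:**
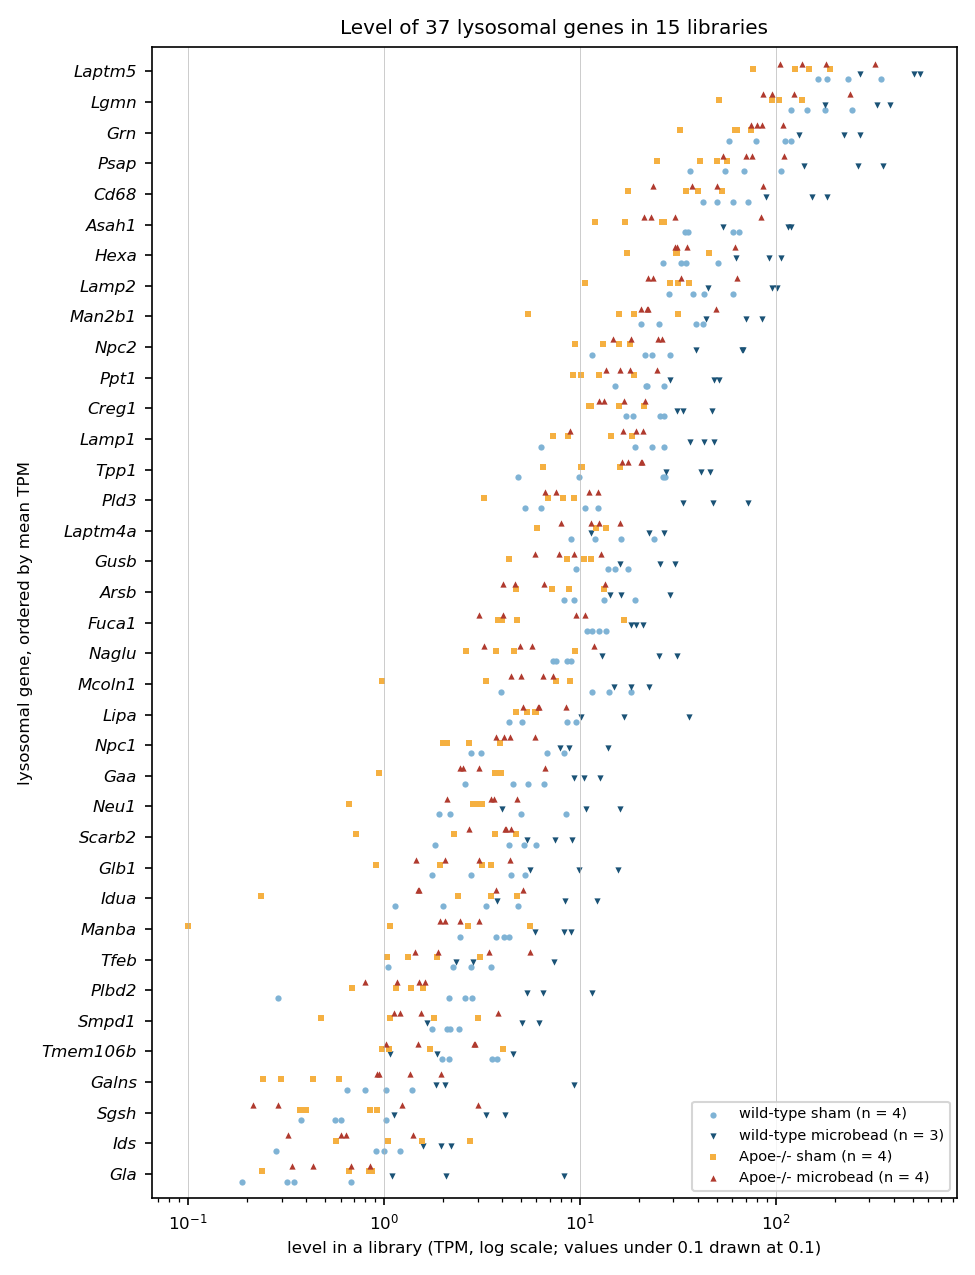
Level of each of the 37 lysosomal genes in each of the 15 libraries, in TPM on a log axis, with genes ordered by their mean and 1 point per library. Laptm5 (mean 235 TPM) sits at the top and Gla (1.19 TPM) at the bottom; wild-type microbead libraries lie to the right for most genes, and on this scale a lower satellite share alone moves all other genes to the right.

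Lamp2 is spliced into forms with different membrane tails, so its transcripts were looked at one by one. Lamp2-202 held a median of 64.6% of the gene's reads (52.3 to 88.4% over libraries) and Lamp2-201 a median of 22.9% (7.47 to 34.2%). Lamp2-203 held 14 reads in all 15 libraries together. Lamp2-201 had 24.4 ± 4.35% (SD, n = 4) in wild-type sham, 28.7 ± 3.09% (n = 3) in wild-type microbead, 18.3 ± 11.4% (n = 4) in Apoe-/- sham and 17.4 ± 6.22% (n = 4) in Apoe-/- microbead libraries. The groups overlapped except that all wild-type microbead values (25.1 to 30.7%) were above all Apoe-/- microbead values (11.5 to 22.9%); the split of reads between transcripts is Salmon's estimate, and no test was run on it.

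Promoter sequence was searched for the E-box CACGTG, the core of the sites that TFEB and its relatives bind, within 250 bases before and 50 after each annotated start in RefSeq (GRCm38.p6). A promoter was found for 33 of the 37 genes. CACGTG, which reads the same on both strands, was in the window of 8 of these 33 genes (24.2%): Gaa, Gla, Glb1, Lamp1, Lgmn, Mcoln1, Naglu and Sgsh. In Lgmn, the window of another annotated start lacked it. Of all 27025 genes with such a window 8.09% held it. On the list of other lysosomal genes given below, 13 of 43 genes with a window (30.2%) held it. The longer palindrome TCACGTGA, which contains the core, was in 2 of the 33 genes (6.06%), against 1.12% of all genes and 16.3% of those 43. With a further G before it and C after it, it was in 0 of the 33 genes, against 0.37% of all genes and 4.65% of the 43. Promoters of 3 genes are shown because they span that range: Lamp1 with the core 4 times, Glb1 with it once, and Psap, among the most abundant of the 37, with none. Each runs from 150 to 3 bases before the start on the plus strand, at chr8:13159011-13159158, chr9:114400928-114401075 and chr10:60277478-60277625, outside any annotated exon, and capitals mark CACGTG.
Lamp1: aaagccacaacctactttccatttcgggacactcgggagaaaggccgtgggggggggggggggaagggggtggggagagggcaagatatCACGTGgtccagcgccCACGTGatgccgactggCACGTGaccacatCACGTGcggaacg
Glb1: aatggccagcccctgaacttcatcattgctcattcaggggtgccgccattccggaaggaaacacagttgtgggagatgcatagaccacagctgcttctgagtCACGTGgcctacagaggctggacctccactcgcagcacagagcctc
Psap: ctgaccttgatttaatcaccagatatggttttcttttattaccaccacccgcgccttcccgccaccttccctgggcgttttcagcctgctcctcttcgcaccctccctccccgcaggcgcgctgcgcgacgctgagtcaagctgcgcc
These matches describe letters in a window and no binding was measured. Pld3, the gene with the largest change below, had no CACGTG in its window. In wild-type retinas the median log2 fold change after microbeads was 0.53 for the 7 tested genes with the core and 0.35 for the 24 without it, a description of small sets.

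In wild-type retinas, the fitted level after microbeads was above that after sham injection for 31 of the 34 lysosomal genes, and 1 gene, Pld3, passed the test. These 34 log2 fold changes had a median of 0.39, while 49.2% of all 6521 genes were positive with a median of -0.01. By edgeR's quasi-likelihood test with Benjamini-Hochberg adjustment at 0.05, 1 of the 34 was called, against 0.199% of all genes; DESeq2 called 2 (Pld3 and Psap), against 0.552%. At an unadjusted p under 0.05, 7 of the 34 were higher and 0 lower, against 4.26% and 3.63% of all genes. In 6 of the 34 (Cd68, Gaa, Hexa, Npc2, Pld3 and Psap) every microbead library was above every sham library, against 6.33% of all genes. The reverse, every microbead library below every sham library, held for 0 of the 34, against 4.22%. Of the 26 well-measured genes, 24 were positive. The 37 genes took 2.35 ± 0.206% (SD, n = 3) of the reads outside the satellite in wild-type microbead and 1.88 ± 0.269% (n = 4) in wild-type sham libraries. With the satellite share as a covariate, 20 of 34 were positive, the median was 0.058 and 0 were called, and Pld3 had a log2 fold change of 1.82 (edgeR adjusted p = 0.24). The satellite share separated these groups fully, and its part in the result cannot be told apart from that of the microbeads.

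**Figure D2:**
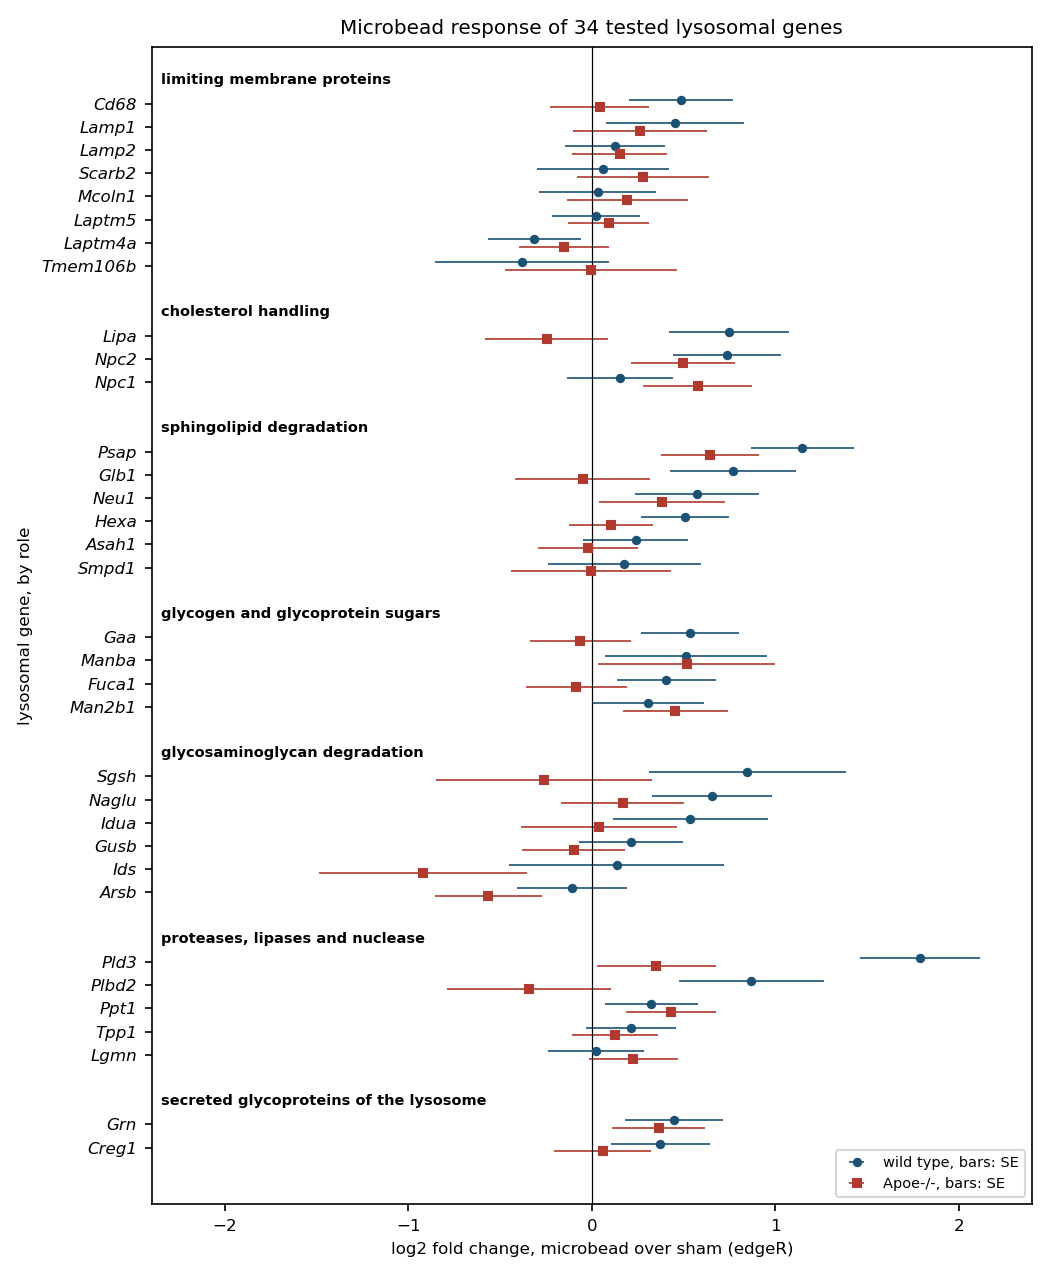
Log2 fold change of microbead over sham for the 34 tested lysosomal genes, by role, in wild-type (circles) and Apoe-/- (squares) retinas, with bars of 1 standard error from edgeR. In wild type 31 of 34 lie above 0, with Pld3 farthest at 1.79; in Apoe-/- 21 of 34 do, with Psap highest at 0.65.

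Among the proteases, lipases and nuclease, Pld3 rose. It encodes a lysosomal 5′ exonuclease of single-stranded nucleic acids and is annotated on the minus strand of chromosome 7, 27532000 to 27553218 (mm10; ENSMUSG00000003363). Its levels were 85.8, 46.8, 82.2 and 69.9 CPM in the wild-type sham libraries and 216, 323 and 203 CPM in the wild-type microbead libraries. The lowest microbead library was thus more than 2 times the highest sham library. The log2 fold change was 1.79 with a standard error (SE) of 0.33 (edgeR adjusted p = 0.0174; DESeq2 1.78, adjusted p = 3.78e-04). The edgeR adjusted p rose to 0.0584, 0.122, 0.0677 and 0.0687 without wild-type sham library 1, 2, 3 or 4 and to 0.194 without wild-type microbead library 2, with log2 fold changes of 1.54 to 1.91 over all such fits. Plbd2, a phospholipase B-like hydrolase, had 32.0, 43.5, 34.3 and 6.17 CPM in sham and 63.7, 36.3 and 63.8 CPM in microbead libraries, so the groups overlapped (0.87, SE 0.39, edgeR adjusted p = 0.608). Its reads over all libraries were 1.68 times the stray-read background, below the 3 times asked of a well-measured gene. Ppt1, the palmitoyl-protein thioesterase lost in infantile Batten disease, had 145, 150, 139 and 128 CPM in sham and 149, 190 and 189 CPM in microbead libraries (0.33, SE 0.25). Lgmn and Tpp1 (tripeptidyl peptidase) were at 0.02 and 0.21. All 5 genes of this role were positive, with a median of 0.33.

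Psap led the genes of sphingolipid breakdown. It had 663, 589, 851 and 477 CPM in wild-type sham and 1064, 1882 and 1342 CPM in wild-type microbead libraries, with no overlap. The log2 fold change was 1.15 (SE 0.28), with an adjusted p of 0.111 by edgeR and 0.00821 by DESeq2, so its call depended on the tool. Glb1, the lysosomal beta-galactosidase that trims gangliosides, had 39.2, 26.8, 37.7 and 20.6 CPM in sham and 38.8, 75.6 and 46.0 CPM in microbead libraries (0.77, SE 0.34, edgeR adjusted p = 0.602). Of the microbead libraries, 1 lay within the sham range. Hexa, which acts on the ganglioside GM2, had 237, 244, 283 and 241 CPM in sham and 335, 405 and 332 CPM in microbead libraries, again with no overlap (0.51, SE 0.24, edgeR adjusted p = 0.629). Neu1 (sialidase), Asah1 and Smpd1 (acid sphingomyelinase) were at 0.57, 0.24 and 0.18. All 6 tested genes of this role were positive, with a median of 0.54. Gla had 2, 2, 5 and 1 reads in sham and 6, 35 and 8 reads in microbead libraries, and was not tested.

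The 3 genes of lysosomal cholesterol handling were positive, with a median of 0.74, and 0 of them were called. Npc2, the soluble protein that passes cholesterol to the membrane protein NPC1, had 212, 271, 242 and 156 CPM in wild-type sham and 314, 410 and 379 CPM in wild-type microbead libraries, with no overlap (0.74, SE 0.29, edgeR adjusted p = 0.53). Lipa, the acid lipase that frees cholesterol from its esters, had 77.0, 50.2, 46.8 and 51.4 CPM in sham libraries and 63.7, 146 and 72.8 CPM in microbead libraries. Wild-type microbead library 2 alone was above the sham range, and the log2 fold change of 0.75 (SE 0.33) was 0.27 without it. Npc1 itself had 77.0, 56.9, 66.2 and 57.6 CPM in sham and 77.5, 58.3 and 80.4 CPM in microbead libraries, with a log2 fold change of 0.15 (SE 0.29).

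**Figure D3:**
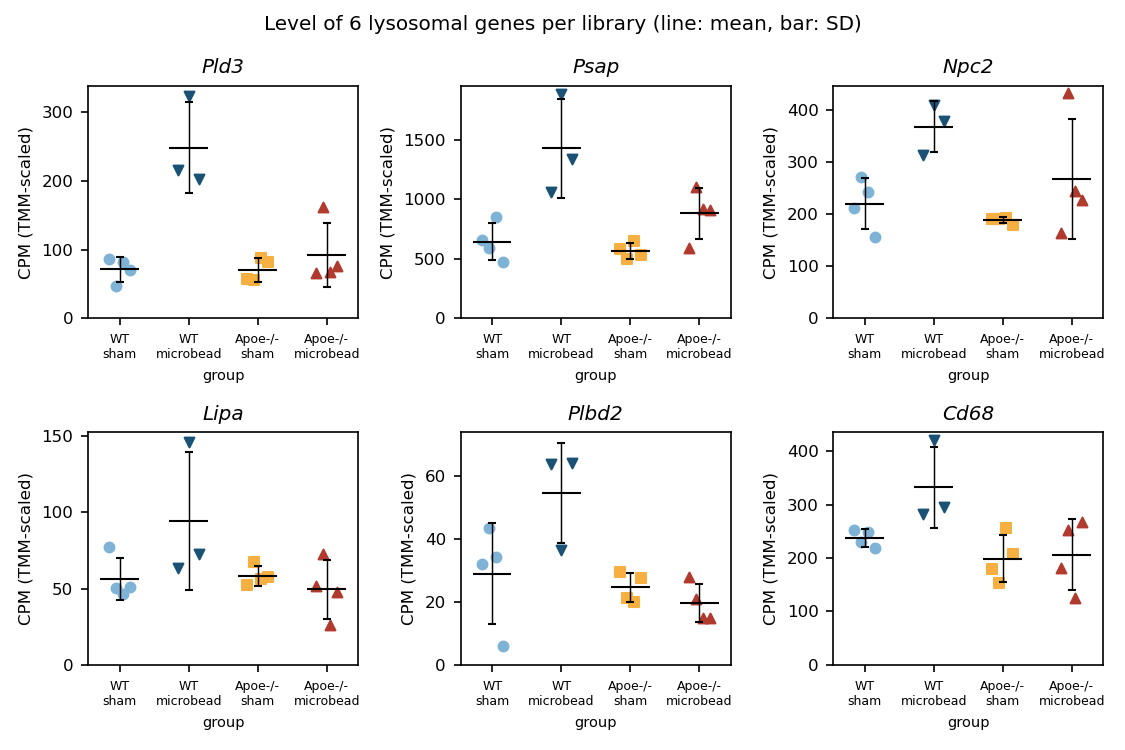
CPM, scaled by TMM, of Pld3, Psap, Npc2, Lipa, Plbd2 and Cd68 in every library, 1 point per library, with the group mean (line) and SD (bar). For Pld3 the 3 wild-type microbead libraries (203 to 323 CPM) lie above all 12 other libraries, of which Apoe-/- microbead library 2 is the nearest at 161 CPM.

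Genes that degrade glycogen and the sugars of glycoproteins were positive in 4 of 4 cases, with a median of 0.46. Gaa, the acid alpha-glucosidase lost in Pompe disease, had 55.2, 48.5, 62.8 and 43.2 CPM in wild-type sham and 74.7, 83.2 and 71.5 CPM in wild-type microbead libraries. The groups did not overlap (0.53, SE 0.27, edgeR adjusted p = 0.657). Manba (beta-mannosidase) had 17.4, 40.1, 20.6 and 30.9 CPM in sham and 38.8, 38.3 and 38.3 CPM in microbead libraries, inside the sham range (0.51, SE 0.44). Fuca1 (alpha-fucosidase) had 79.9, 48.5, 56.0 and 45.3 CPM in sham and 66.4, 89.9 and 72.8 CPM in microbead libraries (0.41, SE 0.27), and its groups overlapped as well. Man2b1 (alpha-mannosidase), the most abundant of the 4, was at 0.31 (SE 0.30).

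Of the 6 tested genes that degrade glycosaminoglycans, 5 were positive, with a median of 0.37 and 0 called. Naglu, the alpha-N-acetylglucosaminidase of heparan sulfate, had 62.5, 66.9, 63.9 and 101 CPM in wild-type sham and 78.9, 150 and 115 CPM in wild-type microbead libraries (0.65, SE 0.33, edgeR adjusted p = 0.658). Wild-type sham library 4 was the one that overlapped. Idua (alpha-L-iduronidase) had 40.7, 23.4, 24.0 and 16.5 CPM in sham and 31.8, 45.9 and 37.0 CPM in microbead libraries (0.54, SE 0.42). Sgsh had 4, 6, 12 and 6 reads in sham and 10, 31 and 10 reads in microbead libraries, too few to read (0.85, SE 0.54). Gusb (beta-glucuronidase) and Ids were at 0.21 and 0.14. Arsb (arylsulfatase B) was the negative member at -0.11 (SE 0.30).

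The 8 genes of the limiting membrane had a median of 0.05, with 6 positive and 0 called. Their values overlapped those of the soluble hydrolases, and the difference between roles was not tested. Cd68 had 253, 231, 248 and 218 CPM in wild-type sham and 282, 420 and 295 CPM in wild-type microbead libraries, with no overlap (0.49, SE 0.28, edgeR adjusted p = 0.715). Lamp1 had 125, 194, 123 and 55.5 CPM in sham and 188, 176 and 149 CPM in microbead libraries (0.45, SE 0.38), all inside the sham range. Laptm5, the most abundant, had 1320, 1363, 1550 and 1216 CPM in sham and 1380, 1356 and 1416 CPM in microbead libraries (0.02, SE 0.24). Laptm4a, its relative, had 77.0, 61.9, 90.2 and 55.5 CPM in sham and 42.9, 71.7 and 57.4 CPM in microbead libraries (-0.31, SE 0.25). Lamp2 (0.13), Scarb2 (0.06; an integral membrane protein of the lysosome), Mcoln1 (0.03; a calcium channel) and Tmem106b (-0.38) made up the rest. The 2 secreted glycoproteins were both positive: Grn had 802, 610, 709 and 508 CPM in sham and 783, 1045 and 862 CPM in microbead libraries (0.45, SE 0.27), and Creg1 had 163, 100.3, 87.9 and 98.7 CPM in sham and 156, 167 and 114 CPM in microbead libraries (0.37, SE 0.27).

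In Apoe-/- retinas the same comparison gave fitted changes on both sides of 0, and 0 of the 34 genes were called by edgeR or DESeq2, as were 0% of all genes; at an unadjusted p under 0.05, edgeR gave 218 genes higher and 235 lower. Of the 34 genes 21 were positive, with a median of 0.10, beside 50.8% of all genes and a median of 0.01. Without Apoe-/- sham library 2, the library with the highest satellite share, 18 were positive and the median was 0.01. At an unadjusted p under 0.05, 1 gene was higher and 0 lower, against 3.34% and 3.6% of all genes, and in 0 of the 34 did the groups separate, against 1.56% of all genes higher and 0.951% lower. The 37 genes took 1.83 ± 0.296% (SD, n = 4) of reads outside the satellite in Apoe-/- microbead and 1.47 ± 0.438% (n = 4) in Apoe-/- sham libraries.

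Psap was that gene. It had 580, 496, 649 and 529 CPM in Apoe-/- sham and 595, 1106, 921 and 909 CPM in Apoe-/- microbead libraries, so that 3 of 4 microbead libraries lay above every sham library (0.65, SE 0.26, edgeR adjusted p = 0.699). Pld3 had 56.9, 55.1, 88.2 and 82.4 CPM in Apoe-/- sham and 65.4, 161, 67.0 and 76.1 CPM in Apoe-/- microbead libraries (0.35, SE 0.32, edgeR adjusted p = 0.82). Only microbead library 2 lay outside the sham range, and without it the log2 fold change was -0.04. Npc2 had 191, 191, 193 and 180 CPM in sham and 165, 432, 246 and 227 CPM in microbead libraries (0.50, SE 0.28), a value that fell to 0.17 without the same library. Lipa had 52.3, 67.8, 56.6 and 57.4 CPM in sham and 51.5, 72.9, 26.0 and 47.8 CPM in microbead libraries (-0.25, SE 0.34). Npc1 had 25, 50.8, 54.9 and 27.5 CPM in sham and 49.6, 70.3, 72.6 and 44.8 CPM in microbead libraries (0.58, SE 0.30). Arsb, the sulfatase of dermatan sulfate, had 114, 127, 205 and 152 CPM in sham and 93.2, 96.3, 65.1 and 151 CPM in microbead libraries (-0.56, SE 0.29, edgeR adjusted p = 0.711). Manba was at 0 reads in Apoe-/- sham library 2, which allows a level of up to 12.7 CPM there (3 reads, counting error only).

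The difference between the 2 responses was tested directly, and 0 of the 34 genes passed by edgeR or DESeq2, as did 0% of all genes. At an unadjusted p under 0.05 in edgeR, 0 of the 34 had a larger response in Apoe-/-, against 1.92% of all genes (125 genes), and 2 a smaller one, against 1.46% (95 genes). The fitted response was smaller in Apoe-/- than in wild type for 23 of the 34 genes, with a median difference of -0.25, beside 49.6% of all genes and a median of 0.00; it was larger for 11, beside 50.4%. With the satellite share as a covariate that median was 0.012, and 17 of the 34 were positive. Pld3 had the largest difference at -1.44 (SE 0.46, edgeR adjusted p = 1.0), followed in order of p by Lipa at -0.99 (SE 0.47). A response over 0.5 was fitted for 13 of the 34 genes in wild type and 3 in Apoe-/-, beside 14.6% and 15.2% of all genes. The 6 genes of sphingolipid degradation and the 6 of glycosaminoglycan degradation all had a smaller value in Apoe-/-, though Sgsh and Ids among the latter lay below the stray-read background, while 6 of 8 limiting membrane genes had a larger one. The adjusted p is close to 1 for all 34, so these are values and not calls.

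In sham retinas 0 of the 34 genes were called between the genotypes by edgeR or DESeq2, against 0.0153% of all genes, which is 1 gene. The log2 fold change of Apoe-/- over wild type was negative for 26 of 34 genes, with a median of -0.17, beside 51% of all genes and a median of -0.01. At an unadjusted p under 0.05, 1 was lower and 0 higher, against 2.96% and 5.72% of all genes. Positive values numbered 8, and 16 with the satellite share as a covariate, 4 without wild-type sham library 4 and 2 of the 33 then tested without Apoe-/- sham library 3. Without Apoe-/- sham library 2 they numbered 12 and the median was -0.07. Npc1, the membrane protein that exports cholesterol from the lysosome, was the gene whose libraries separated (1 of 34 lower and 0 higher, against 2.38% and 1.2% of all genes): the values given above put all 4 Apoe-/- sham libraries (25 to 54.9 CPM) below all 4 wild-type sham libraries (56.9 to 77.0 CPM), by -0.71 (SE 0.29, edgeR adjusted p = 0.556). Lgmn was next by p, with 819, 682, 1080 and 846 CPM in Apoe-/- sham and 1195, 1052, 1323 and 1059 CPM in wild-type sham libraries (-0.43, SE 0.24, edgeR adjusted p = 0.623).

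In microbead retinas the fitted level was lower in Apoe-/- than in wild-type microglia for 32 of the 34 genes, and edgeR called 0 of them. This comparison uses the same wild-type microbead libraries as the wild-type response above, so the values are given side by side and are not separate evidence. The 34 log2 fold changes had a median of -0.37, beside 49% of all genes and a median of 0.01. Of all genes edgeR called 0.046%; DESeq2 called 1, Pld3, against 0.353%. At an unadjusted p under 0.05, 9 were lower and 0 higher, against 2.94% and 4.26% of all genes. In 8 of the 34 (Cd68, Fuca1, Gaa, Glb1, Manba, Mcoln1, Plbd2 and Pld3) every Apoe-/- library was below every wild-type library, against 3.67% of all genes. The reverse held for 0 of the 34, against 3.22%. Of the 8 separated genes, Manba and Plbd2 fell short of the stricter measure of reads given above. With the satellite share as a covariate the median was -0.13 and 16 of the 34 were positive, against 2 without it. Without wild-type microbead library 2, 5 of the 35 genes then tested were positive.

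Pld3 was lower by -1.44 on the log2 scale (SE 0.33; edgeR adjusted p = 0.227, DESeq2 adjusted p = 0.0107), at 92.5 ± 46.2 CPM (SD, n = 4) in Apoe-/- microbead and 247 ± 66.1 CPM (n = 3) in wild-type microbead libraries. Leaving out each library in turn gave -1.83 to -1.20. Without Apoe-/- microbead library 2 edgeR called it as well (-1.83, adjusted p = 0.0202), and without wild-type microbead library 2 it was -1.20 (edgeR adjusted p = 1.0). Plbd2 had 27.8, 20.8, 14.9 and 14.9 CPM in Apoe-/- microbead libraries, all below the 3 wild-type values, with a log2 fold change of -1.48 (SE 0.42, edgeR adjusted p = 0.425) from 8 to 14 reads per Apoe-/- library. Over all libraries Plbd2 lay at 1.68 times the stray-read background, so the size of this change is uncertain. Cd68 had 180, 252, 125 and 267 CPM in Apoe-/- microbead libraries (-0.69, SE 0.28), Gaa 45.6, 49.5, 37.2 and 52.2 CPM (-0.73, SE 0.27) and Glb1 15.9, 28.6, 33.5 and 32.8 CPM (-0.95, SE 0.35), each below the wild-type range. Naglu (-0.89, SE 0.33), Lipa (-0.95, SE 0.34) and Psap (-0.70, SE 0.28) were also among the 9 and had overlapping groups. Laptm5, Lgmn and Lamp2, 3 of the abundant genes, were at -0.12, -0.23 and -0.17.

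The mean log2 CPM of the 34 genes summarised each library. Wild-type libraries had 6.57 ± 0.16 (SD, n = 4) after sham and 6.96 ± 0.16 (n = 3) after microbead injection, and Apoe-/- libraries 6.37 ± 0.30 (n = 4) and 6.51 ± 0.18 (n = 4). The 3 wild-type microbead libraries were the 3 highest of the 15, and Apoe-/- sham library 2 was the lowest at 5.95. These 4 libraries also held the 3 lowest satellite shares and the highest one, as the plot of level against satellite share shows. Apoe-/- microbead library 2 went the other way, with the next highest share (70.7%) and a level of 6.69, above 3 of the 4 wild-type sham libraries. Dissociation and immediate early genes summed to 219 to 3769 CPM in wild-type sham and 1351 to 8072 CPM in wild-type microbead libraries, overlapping ranges, and their part in the result was not tested.

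**Figure D4:**
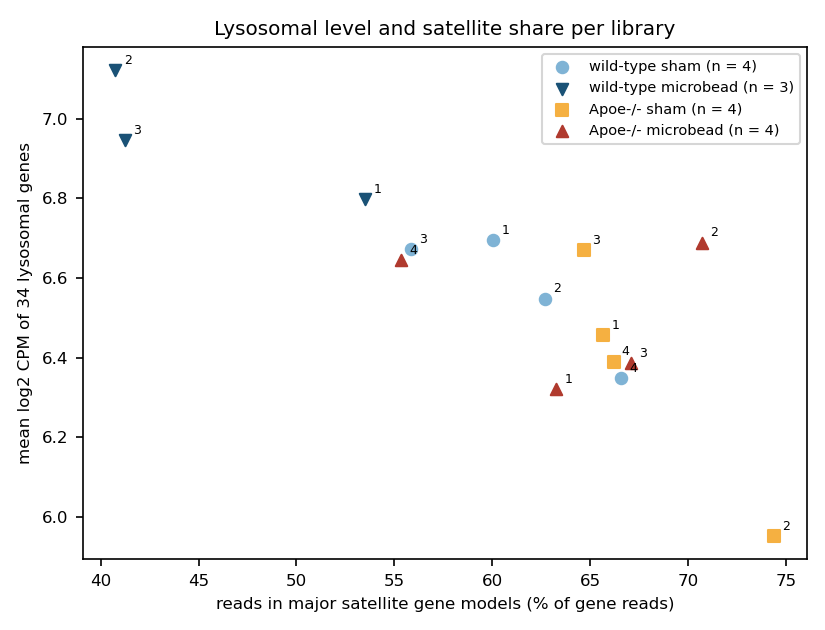
Mean log2 CPM of the 34 tested lysosomal genes (vertical axis) against the percentage of gene reads in major satellite models (horizontal axis), 1 point per library, with replicate numbers beside the points. Wild-type microbead libraries sit at the upper left (6.80 to 7.12, satellite 40.8 to 53.5%) and Apoe-/- sham library 2 at the lower right (5.95, 74.4%).

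A list of 52 other lysosomal genes, of which 44 were tested, was read off the same fits. In wild-type retinas 30 of 44 were positive, with a median of 0.18, and 1 was called by edgeR and by DESeq2: Cd63, a tetraspanin of late endosomes and lysosomes. It had 135, 68.6, 105 and 96.7 CPM in wild-type sham and 238, 363 and 315 CPM in wild-type microbead libraries (1.59, SE 0.31, edgeR adjusted p = 0.0322). Its edgeR call was lost without any 1 of the 4 wild-type sham libraries or wild-type microbead library 2 or 3, and with the satellite covariate, length offsets, the replicate block or a filter of at least 10 reads in 7 libraries. With no filter on low counts, which also brings in genes left untested here, edgeR called 3 of the 52 in wild type. That fit called 2 of the 52 between the genotypes in microbead retinas. Gm2a, the activator that lifts GM2 for beta-hexosaminidase, was at 0.75 (SE 0.28) and Dpp7, a dipeptidyl peptidase, at 0.83 (SE 0.38), each with an edgeR adjusted p over 0.5. In Apoe-/- retinas 31 of 44 were positive, with a median of 0.17 and 0 called, and Cd63 was at 0.69 (SE 0.30). The difference of responses over this list had a median of -0.03 with 25 of 44 negative. Mean log2 CPM over its 44 tested genes was higher after microbeads by 0.22 in wild type and by 0.29 in Apoe-/- libraries. Tfeb had 4 to 11 reads per wild-type sham and 7 to 12 per wild-type microbead library. Its relatives were measured better for Tfe3, at 75.6 ± 10.3 CPM (SD, n = 4) in wild-type sham and 78.1 ± 13.3 CPM (n = 3) in wild-type microbead libraries (0.04, SE 0.27), than for Mitf, at 13.6 ± 4.67 and 11.8 ± 5.14 CPM (-0.17, SE 0.52).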

How the data were processed

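Libraries were made with SMART-Seq2, per the file headers, and quantified with Salmon 1.4.0 against build mm10, per the submitters' processing notes, which also name R 4.0.3 and DESeq2 1.30.1. The authors deposited estimated counts per transcript, TPM and effective lengths (a length score of Salmon's own, per the file headers), and a gene table of TPM. No source used here gives the annotation release, strand setting or read filters.

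Estimated counts deposited by the authors were summed per gene with GENCODE M21 (116024 of 116945 transcripts assigned, 35519 genes) and rounded. Unassigned reads, 0.216 to 0.353% per library, were left out. The main Gla transcript is not in that release and was assigned because its TPM makes up the authors' deposited Gla TPM in 15 of 15 libraries. Against the authors' deposited gene table, summed TPM were equal for 99.7% of values (relative tolerance 0.001) and for 555 of 555 values of the 37 genes.

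Groups were taken from the labels. The test of counts was that of edgeR 4.0.16 under R 4.3.3 (TMM, filterByExpr, quasi-likelihood test, 1 model of 15 libraries, Benjamini-Hochberg over 6521 genes, threshold 0.05; common biological coefficient of variation 34.4%), giving 5 contrasts. DESeq2 1.42.0, limma 3.58.1 and the other alternatives are in the closing section. CPM use TMM-scaled library sizes; mean log2 CPM used a prior count of 2. P-values are two-sided. On simulated data for the wild-type contrast (5899 genes), 14% of genes changed 2-fold, 96% of those changed 4-fold and 100% of those changed 8-fold upwards were called, and 78% of 4-fold decreases, with 17 false calls. The false calls were a larger part of all calls in that simulation than the threshold of 0.05 aims at. The changed genes, 50 for each fold, were drawn only from genes above a floor of expected reads. These shares therefore do not cover lysosomal genes with few reads. No pair of libraries in a group agreed within sampling noise. The reads have no molecular identifiers, so floors cover counting error alone.

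Members, roles and lists were chosen with earlier results of these data known. Read counts per library were given for members called in any contrast by edgeR or DESeq2, up to 3 per role with the smallest p in wild type, 2 per other contrast, and those with the highest and lowest TPM, 24 in all. Of the other lysosomal genes, those called, the 3 with the smallest p, Mitf and Tfe3 were named; 1 of these genes is not reported here.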

Additional observations from a re-analysis of the deposited data

Results flagged for a closer look

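Within groups of 4, the library farthest from the rest was set against Dixon's 95% limit in 81 groups of values, and 10 exceeded it. For independent, normally distributed values chance gives about 1 in 20. The same libraries enter many of these groups, so no excess is read from the count. In wild-type sham retinas, library 1 stood above the others for Lipa at 77.0 CPM and for Creg1 at 163 CPM, library 3 for Hexa at 283 CPM, and library 4 for Naglu at 101 CPM. In Apoe-/- sham retinas, library 2 stood below the others for Laptm4a at 59.3 CPM and above them in satellite share at 74.4%, and library 3 stood above them for Naglu at 79.9 CPM. In Apoe-/- microbead retinas, library 1 stood above the others for Fuca1 at 63.4 CPM, library 2 for Pld3 at 161 CPM, and library 4 in the share of gene reads held by the 37 genes, at 0.928%. No difference between the responses of the genotypes passed its test for any of the 34 genes.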

How the results depend on the processing

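Of the named members edgeR called 1 result, Pld3 in wild type: 10 alternative fits kept that call and 7 lost it, among them the replicate block (1.73, adjusted p = 0.0794). The other named results were not called, so that they mostly stayed uncalled says nothing of stability. In 10 combinations of gene, contrast and alternative fit a call was gained, most of them on log2(TPM + 1). The rest came from DESeq2, no filter on low counts or the fit without Apoe-/- microbead library 2. Signs of uncalled values varied (Pld3 in Apoe-/- ran from -0.04 to 0.48 with 1 library left out). For microbead against sham in wild type, 13 genes were called; the count was 36 with DESeq2, 7 with limma voom, 124 with no filter on low counts, 5 with at least 10 reads in 7 libraries, 7 with the replicate block, 5 with the satellite covariate, 84 on log2(TPM + 1) and 33 with only the 2 groups fitted. Lysosomal genes called there were 2, 0, 0 and 3 with DESeq2, the replicate block, the satellite covariate and log2(TPM + 1), and their median was 0.058 with the covariate and 1.00 on log2(TPM + 1). On that last scale the median of all genes was itself 0.58, so the lysosomal median lay 0.41 above it. In Apoe-/- the no-filter fit called 37 genes and log2(TPM + 1) gave a median of 0.36 (all genes 0.18). For the difference of responses, no filter called 45 genes, the satellite covariate 1 and log2(TPM + 1) 5, and the median was 0.012 and -0.63 under the last 2 (all genes -0.43 on the TPM scale). For Apoe-/- against wild type in sham, no filter called 41 genes and log2(TPM + 1) gave a median of -0.55 (all genes -0.30). In microbead retinas 3 genes were called; the count was 23 with DESeq2, 1 with limma voom, 71 with no filter, 1 with at least 10 reads in 7 libraries, 1 with the replicate block and 186 on log2(TPM + 1). Lysosomal genes called there were 1 with DESeq2, 1 with no filter and 4 on log2(TPM + 1), and the median was -0.13 with the satellite covariate and -1.27 on log2(TPM + 1) (all genes -0.73). The cause of these shifts was not tested beyond the scale change stated.

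Leaving out each library in turn gave 0 to 29 called genes, 0 to 1 lysosomal genes and a median of 0.28 to 0.44 in wild type; the 0 came without wild-type microbead library 2 and the 29 without library 1. The median was 0.01 to 0.24 in Apoe-/-, -0.43 to -0.10 for the difference, and -0.30 to -0.07 for the genotypes in sham. In microbead retinas it was -0.45 to -0.28, with 1 to 7 genes and 0 to 1 lysosomal genes called. The count of positive lysosomal genes was 27 to 32 in wild type, 17 to 24 in Apoe-/-, 5 (without Apoe-/- sham library 2) to 14 for the difference, 2 to 12 for the genotypes in sham and 2 to 5 in microbead retinas. Same-numbered libraries of different groups had correlated deviations over 0.1 in 3 of 21 pairs (range -0.17 to 0.22). Such weak correlations cannot show whether same-numbered retinas shared a mouse or a batch. With the E-box lengthened to TCACGTGA, 2 promoters matched, and 0 with a G before and a C after that. Depth limits all genes averaging under 10 reads.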
